A study of Homo sapiens with 2 samples.

Results

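The multi-tRNA synthetase complex is a cytosolic assembly that holds several aminoacyl-tRNA synthetases, the enzymes that join amino acids to their tRNAs, on scaffold proteins called AIMPs. Ribosome footprints are described here on 9 of a list of 10 genes of the complex, each matched to the deposited table by its Ensembl ID before the version suffix, among 57820 gene IDs in all. They are the 7 synthetase genes EPRS, IARS, LARS, MARS, QARS, RARS and KARS, written with the older cytosolic symbols, and the 2 scaffold genes AIMP1 and AIMP2. All 9 IDs were found and were above 0 in both libraries. The sums, shares, medians, counts, orders and extremes of members below are over these 9, not over the whole list. They may differ with the remaining gene included, so no direction is given here for the complex as a whole. The remaining known auxiliary protein of the complex, EEF1E1, was not in the set and is not analysed here.

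Both libraries came from the established cell line HEK293, of human embryonic kidney origin, kept in DMSO vehicle for 12 h without heat shock. Replicate 1 is from batch 1 and replicate 2 from batch 2, so batch and replicate cannot be told apart. The libraries form a single group, and minocycline-treated cells and matched RNA-seq are not analysed here. Ribosome profiling sequences the mRNA pieces that ribosomes shield from RNase I. The table gives the fragments of 27 to 29 nt per gene, 865838 in replicate 1 and 611266 in replicate 2.

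As background, synthetases fall into unrelated structural classes. IARS, LARS, MARS, QARS and RARS are class I enzymes, KARS is a class II enzyme, and EPRS carries a class I glutamyl and a class II prolyl enzyme in 1 polypeptide. AIMP1 and AIMP2 have no synthetase activity and tether the enzymes to each other, with KARS held by AIMP2, and RARS and QARS joined to AIMP1. The complex supplies charged tRNAs to translating ribosomes, and several of its proteins also have separate signalling roles when released.

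The 9 genes took a small share of all fragments. The 9 genes together held 1841 fragments in replicate 1, or 0.213% of that library (95% exact Clopper-Pearson interval 0.203 to 0.223). They held 915.5 fragments in replicate 2, or 0.150% (0.140 to 0.160). The mean was 0.181% ± 0.0444 (SD, n = 2), and the intervals of the libraries did not overlap. These intervals hold counting error alone, and since PCR copies were not told apart by molecular identifiers, they may be too narrow. The shares also depend on the 2 highest IDs, which took a larger part of replicate 2. Without them, the totals of rounded counts fell from 865705 to 713595 in replicate 1 and from 611163 to 469071 in replicate 2. Beyond the batch numbers, the labels do not say whether the libraries came from separate cultures, so SDs may hold technical spread only.

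All 9 genes passed the minimum of 20 summed counts. Their mean levels ran from 52.8 to 388 CPM (counts scaled to a library total of 1000000, not corrected for gene length), with a median of 219 CPM. The median of all 6965 IDs that reached this minimum was 39.7 CPM. The members lay between the 60.3rd and the 95.3rd percentile of those IDs, and ranked from 328 to 2767 among all IDs of the table. The coding lengths of the members were not used here, so CPM is a number of fragments per gene and not ribosome density. Fragments per gene also depend on how much mRNA there is and how many ribosomes each mRNA carries, and these cannot be told apart. Being scaled to the library total, CPM gives no reading of cell number or of RNA per cell.

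Among the class I enzymes, MARS had the most fragments of the 9 genes. MARS (ENSG00000166986.8), the methionyl enzyme, which also charges the initiator tRNA, had 392 fragments in replicate 1 and 198 in replicate 2, or 453 and 324 CPM (mean 388 ± 91.1, SD, n = 2). QARS (ENSG00000172053.10), the glutaminyl enzyme, had 296 and 142 fragments, or 342 and 232 CPM. IARS (ENSG00000196305.13), the isoleucyl enzyme, had 257 and 129 fragments, or 297 and 211 CPM. For these 3 genes, replicate 2 was the lower library in CPM.

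LARS (ENSG00000133706.13), the leucyl enzyme, which also takes part in leucine sensing for mTORC1, had 226 and 108 fragments, or 261 and 177 CPM. RARS (ENSG00000113643.4), the arginyl enzyme, also made in a shorter form outside the complex, had 111 and 71 fragments, or 128 and 116 CPM. LARS was lower in replicate 2 with intervals apart (228 to 297 CPM in replicate 1 and 145 to 213 CPM in replicate 2, 95% exact Poisson). How many of all IDs had intervals apart in this direction was not computed. The intervals of RARS overlapped (105 to 154 CPM and 90.7 to 147 CPM).

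EPRS (ENSG00000136628.13), the bifunctional glutamyl and prolyl enzyme, followed MARS with 358 and 162 fragments, or 413 and 265 CPM (mean 339 ± 105, SD, n = 2). KARS (ENSG00000065427.10), the lysyl enzyme, whose gene also encodes the mitochondrial form, had 80 and 58 fragments, or 92.4 and 94.9 CPM (mean 93.6 ± 1.76, SD, n = 2). The Poisson intervals of KARS overlapped almost fully (73.3 to 115 CPM and 72.1 to 123 CPM).

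The scaffold genes had the fewest fragments. AIMP1 (ENSG00000164022.12), which also gives rise to the secreted cytokine EMAP II, had 61.5 fragments in replicate 1 and 25 in replicate 2, or 71.0 and 40.9 CPM (mean 56.0 ± 21.3, SD, n = 2). AIMP2 (ENSG00000106305.5), the scaffold that links the sub-assemblies of the complex, had 59.5 and 22.5 fragments, or 68.7 and 36.8 CPM (mean 52.8 ± 22.6, SD, n = 2). Both were lower in replicate 2, where they rested on few fragments. The 95% Poisson intervals of AIMP1 overlapped between the libraries (54.4 to 91.1 CPM and 26.5 to 60.4 CPM). Those of AIMP2 also overlapped (52.4 to 88.5 CPM and 23.2 to 55.5 CPM).

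**Figure D1:**
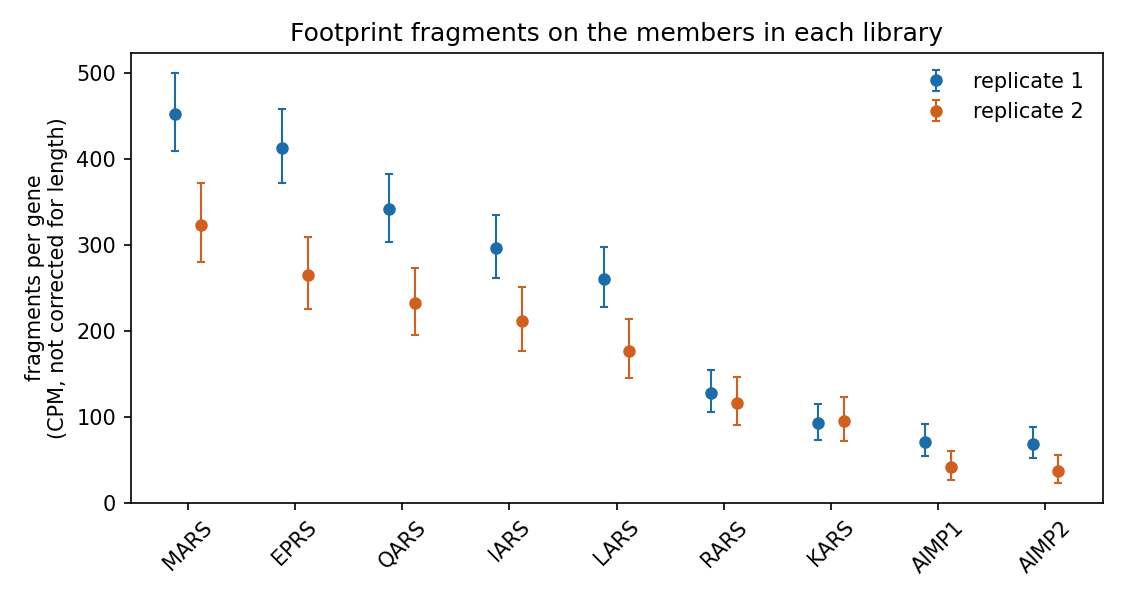
Fragments per gene in CPM (vertical axis, linear from 0, not corrected for length) for the 9 genes in order of mean CPM. Points are the libraries and bars are 95% Poisson intervals of the count, exact where it is a whole number. MARS, EPRS, QARS, IARS and LARS lie lower in replicate 2 with bars apart. The share of all IDs with bars apart in this direction was not computed. By library size, 57.3% of IDs with at least 20 summed counts were lower in replicate 2. The bars of RARS, KARS, AIMP1 and AIMP2 overlap between the libraries, and AIMP1 and AIMP2 are lowest.

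In fragments per gene, the order from MARS through EPRS, QARS, IARS, LARS, RARS, KARS and AIMP1 to AIMP2 was the same in both libraries. Of the 8 pairs of neighbours in this order, the counting intervals overlapped in both libraries for all but LARS and RARS, which were apart in replicate 1, and KARS and AIMP1, which were apart in replicate 2. The order is of fragment numbers, not of levels per length.

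Set among the other IDs, the members lay within the main cloud of points. Compared with equal CPM, 8 of the 9 were below the line and KARS was just above it. By library size, 57.3% of IDs with at least 20 summed counts were lower in replicate 2.

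**Figure D2:**
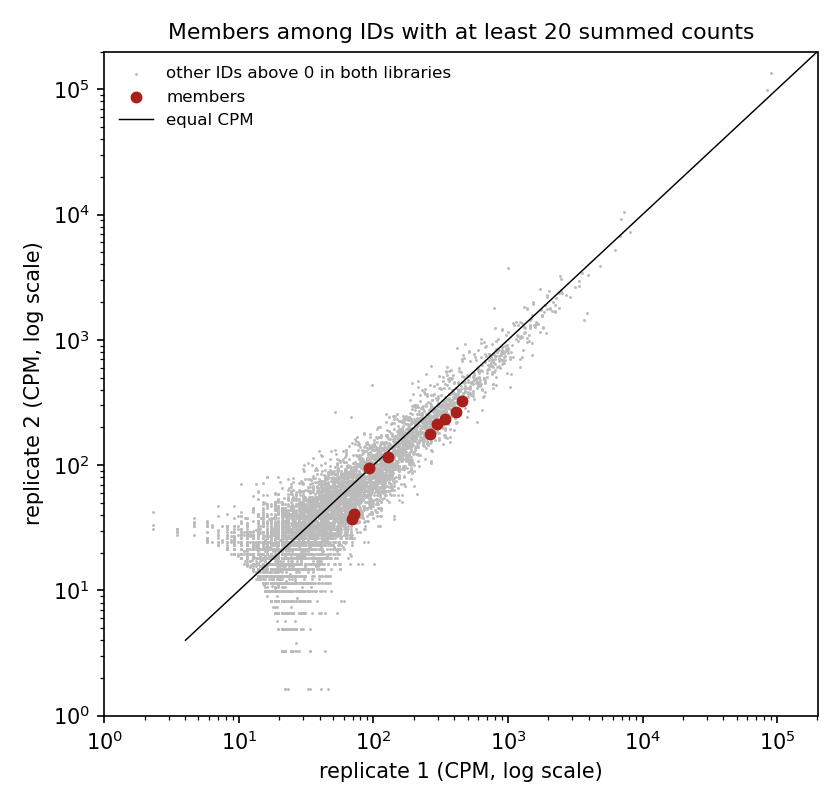
CPM in replicate 1 (horizontal) against replicate 2 (vertical), both on log scales, for IDs detected in both libraries and reaching 20 summed counts (grey) and the 9 members (red); the line marks equal CPM. Of the members, 8 lie below the line, and KARS lies just above it.

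The libraries were then compared gene by gene as the log2 ratio of replicate 2 over replicate 1 after TMM scaling, a factor that makes the bulk of IDs equal. This compares 2 libraries and not conditions, and no p-value was computed. A value below 0 was found for 8 of the 9 members, where 50.4% of all tested IDs were below 0. By library size it was again 8, where 57.3% of IDs were below 0. Among IDs with at least 100 summed counts 56.8% were below 0, and of the 7 members that reached 100, 6 were. With TMM factors from IDs of at least 100 summed counts the number over all members was 7, because RARS changed sign. The share over all tested IDs was not computed with these factors. The median over the members was -0.45, and over the 6958 tested IDs above 0 in both libraries it was -0.0049. The members' values ran from -0.84 to 0.15.

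A 95% exact binomial interval wholly below 0 was found for 7 members and wholly above 0 for 0 members. Of all tested IDs, 13.0% had an interval below 0 and 13.4% had one above 0. Such intervals narrow with depth, so a call is easier for genes with many fragments. Among the 2241 IDs with at least 100 summed counts 22.3% had an interval below 0, and of the 7 members that reached 100, 5 did. With 99% intervals the number over the 9 members was 4, and with TMM factors from IDs of at least 100 summed counts it was 6, because the interval of AIMP1 then held 0. The call for AIMP1 was narrow, with an upper limit of -0.0076. These intervals used counts rounded to whole numbers, and rounding lowered the ratios of AIMP1 and AIMP2. Intervals from the deposited values of these genes were not computed.

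EPRS had a log2 ratio of -0.53 (95% interval -0.81 to -0.26), the lowest of the 7 synthetases. LARS (-0.45, -0.80 to -0.12) and QARS (-0.45, -0.75 to -0.15) were nearly equal. IARS (-0.38, -0.70 to -0.07) and MARS (-0.37, -0.63 to -0.12) came next. These 5 genes, with the most fragments of the 9, lay within 0.16 of each other on the log2 scale. Each of the 5 lay between the 20.2nd and the 28.0th percentile of the ratios of all tested IDs. Among IDs with at least 100 summed counts, which all 5 reached, they lay lower, between the 13.8th and the 23.3rd. The median of those IDs was -0.07, and their 5th to 95th percentile ran from -0.85 to 0.73. None of the 5 stood outside the 5th to 95th percentile of either set.

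RARS had a log2 ratio of -0.03 (-0.48 to 0.41) and KARS of 0.15 (-0.37 to 0.65), and the interval of each held 0. KARS lay at the 59.2nd percentile of all ratios and RARS at the 48.2nd. Among IDs with at least 100 summed counts they lay at the 69.0th and the 54.1st.

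AIMP1 had a log2 ratio of -0.70 (-1.43 to -0.01) and AIMP2 of -0.84 (-1.61 to -0.11). They were the 2 members beyond 1.5-fold, both lower in replicate 2, where 18.2% of all tested IDs were beyond 1.5-fold in that direction. A share of 2 in 9 is close to that background. Neither reached 100 summed counts, and with 99% intervals the interval of each held 0, as did that of IARS. Both ratios used counts rounded to whole numbers, which made them lower than the deposited values would.

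**Figure D3:**
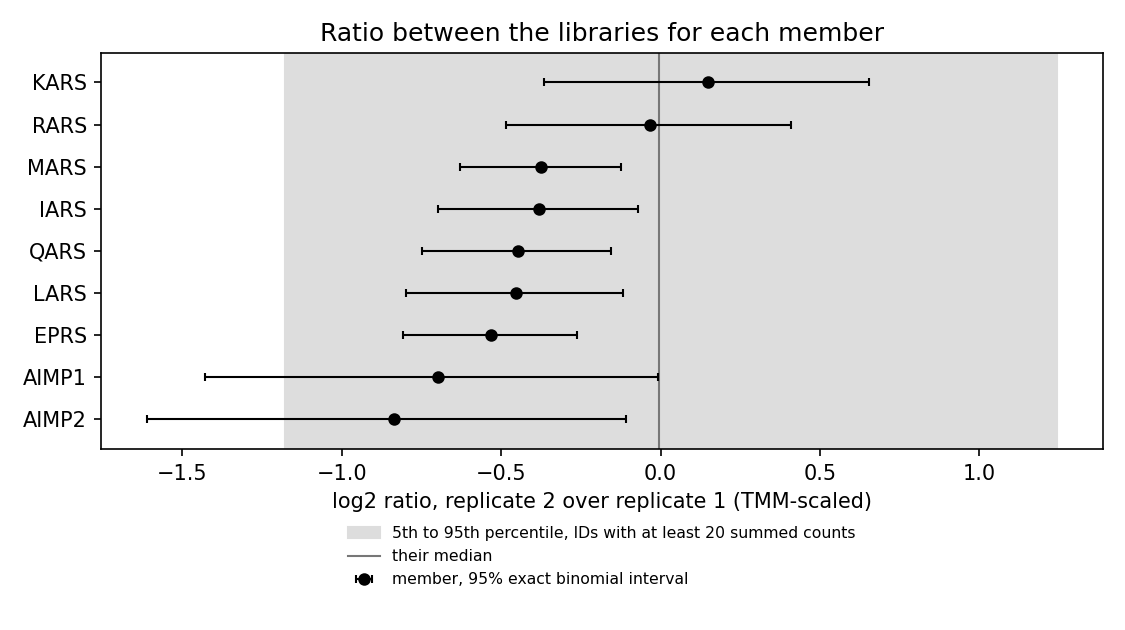
TMM-scaled log2 ratio of replicate 2 over replicate 1 (horizontal axis) for each member, with 95% exact binomial intervals; the grey band spans the 5th to the 95th percentile of tested IDs above 0 in both libraries, from -1.18 to 1.24, and the line is their median. All 9 points lie inside the band, and the 7 lowest have intervals below 0, that of AIMP1 narrowly so (upper limit -0.0076, from rounded counts).

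Summed over the 9 genes, the log2 ratio was -0.40 (95% exact binomial interval -0.51 to -0.28), which is 1.32 times more in replicate 1. The 7 synthetases summed to -0.38 (-0.49 to -0.26) and the scaffold genes to -0.76 (-1.28 to -0.27). Rounding of the non-whole counts lowered the scaffold value too. By library size, which moves the median of the 6958 tested IDs above 0 in both libraries from -0.0049 to -0.11, the sum stood at -0.51. Without the 2 highest IDs in the library size, a setting added once the data had been seen, it stood at -0.40.

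The share of each gene among the members' fragments does not depend on how the libraries are scaled. MARS held 21.3% of the fragments of the 9 genes in replicate 1 and 21.6% in replicate 2, IARS 14.0% and 14.1%, and LARS 12.3% and 11.8%. EPRS held 19.4% and 17.7%, and QARS 16.1% and 15.5%. The 95% Clopper-Pearson intervals of each of these 5 genes overlapped between the libraries.

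The smaller shares moved further in proportion. KARS held 4.35% in replicate 1 (3.46 to 5.38) and 6.34% in replicate 2 (4.85 to 8.12). The odds of a fragment lying on KARS rather than on the other genes were 1.49 times higher in replicate 2 (95% exact conditional interval 1.03 to 2.14), and the intervals of the other odds ratios held 1. RARS held 6.03% and 7.76%, with an odds ratio of 1.31 (0.949 to 1.80). AIMP1 held 3.34% and 2.73%, with an odds ratio of 0.807 (0.482 to 1.31), and AIMP2 3.23% and 2.46%, with an odds ratio of 0.732 (0.425 to 1.22). These intervals hold counting error alone and were not adjusted for the number of genes. No background of such odds ratios was computed. The TMM-scaled ratio of KARS, a different measure, lay inside the 5th to 95th percentile of those of single IDs.

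**Figure D4:**
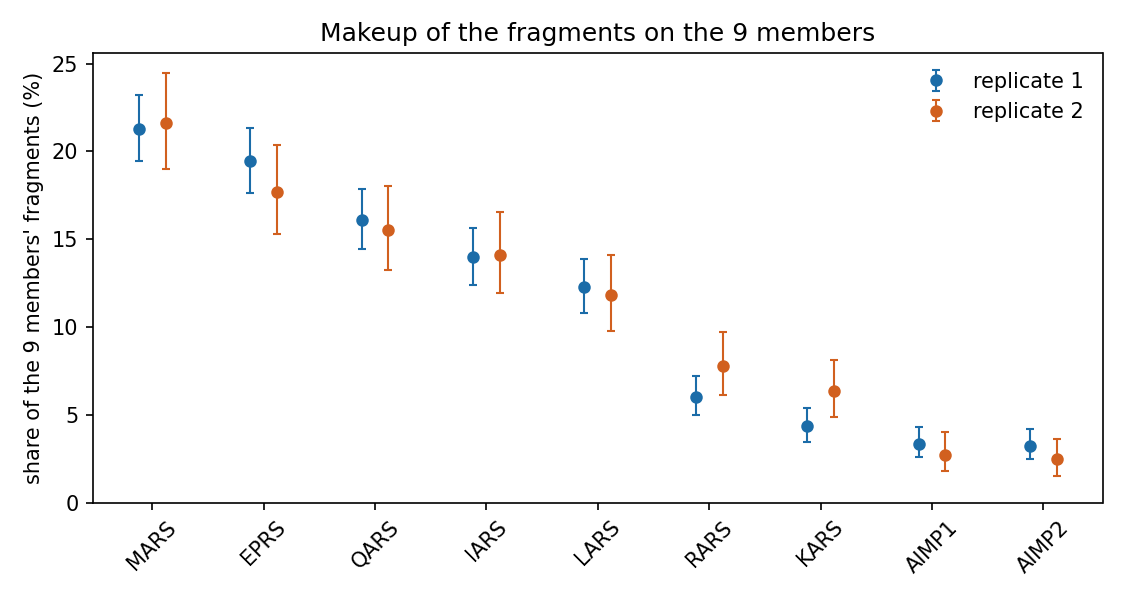
Share of the 9 members' fragments on each gene (vertical axis, percent, from 0) in each library, with 95% exact Clopper-Pearson intervals. MARS holds 21.3% and 21.6% and KARS 4.35% and 6.34%, and the intervals of the libraries overlap for every gene shown.

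Of the 9 members, AIMP1 and AIMP2 had a non-whole count, as did 20.3% of all tested IDs. Fragments given partly to more than 1 feature would leave such values, and the authors' rule is not given in the sources used here, so the counts of both scaffold genes are uncertain. The gene spans in the RefSeq table (GRCh38.p14) overlap the protein-coding genes TBCK for AIMP1 and EIF2AK1 for AIMP2. MARS, whose span overlaps DDIT3 and ARHGAP9 there, had whole counts. Small RNA genes or pseudogenes also overlap the spans of EPRS, IARS, LARS, MARS, QARS and AIMP2. No overlapping gene is listed for RARS or KARS. Without both scaffold genes the sum is that of the 7 synthetases above.

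The DNA before the transcription start was read for 8 of the 9 genes, in 11 windows (3 starts for AIMP1 and 2 for AIMP2), from the RefSeq promoter table of build GRCh38.p14. LARS had no entry. Each window holds 250 bases before the start and 50 from it. Sequences are shown for MARS, IARS and AIMP2, which hold the rarest letters searched. Each runs from 150 bases before the start to 4 bases into the transcript, with the match in capitals.
MARS, chr12:57487918-57488071, plus strand: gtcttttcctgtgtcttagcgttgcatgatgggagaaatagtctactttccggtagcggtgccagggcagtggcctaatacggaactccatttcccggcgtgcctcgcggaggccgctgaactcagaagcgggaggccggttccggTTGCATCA
IARS, chr9:92293694-92293847, minus strand: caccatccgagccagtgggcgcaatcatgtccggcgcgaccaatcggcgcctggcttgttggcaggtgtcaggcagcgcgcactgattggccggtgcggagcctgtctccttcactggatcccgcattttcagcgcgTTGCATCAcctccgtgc
AIMP2, chr7:6009122-6009275, plus strand: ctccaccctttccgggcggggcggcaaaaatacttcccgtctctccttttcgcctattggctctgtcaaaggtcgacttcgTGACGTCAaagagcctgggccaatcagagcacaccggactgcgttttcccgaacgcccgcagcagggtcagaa

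In MARS and IARS the capitals are the same letters, TTGCATCA, which read TGATGCAA on the other strand. This is a match to TGATGNAA, the core of the composite site known to bind C/EBP and ATF factors such as ATF4. The match ran from position -4 to 4 in MARS and from -13 to -6 in IARS, counted from the start with no position 0. With both strands searched, TGATGNAA occurred in 2 of the 11 member windows and in 3.62% of all 35116 windows of the table. In AIMP2 the capitals are TGACGTCA, the palindromic cAMP response element, from -69 to -62, which 1.85% of all windows hold. It lay in 1 of the 2 windows of AIMP2.

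The more common motifs were CCAAT, the letters NF-Y binds, in 4 of the 11 member windows (34.6% of all windows), GGGCGG, the GC box, in 6 (45% of all windows), CACGTG, the E-box, in 2 (7.26%), and TATAAA in 1, of AIMP1 (11.5%). The capitalised sites did not overlap a match to another of these motifs. RARS held none of the 6 searched. A match describes letters in the window only, and the libraries hold no readout of transcription.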

How the data were processed

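Ribosome-protected fragments were measured in both vehicle libraries of HEK293 cells. Per the labels' protocols, RNase I digestion of the lysates was followed by size-exclusion isolation of monosomes and gel purification of pieces from 20 to 38 nt, without depletion of ribosomal RNA. The authors deposited estimated counts of fragments of 27 to 29 nt per gene ID, unscaled and partly non-whole (more than 0.001 from a whole number). The genome build named is hg19, per the submitters' processing notes; aligner, counter, annotation and strand setting: not given in the sources used here.

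CPM and shares used the deposited values over the total of all IDs. Ratios, odds ratios, intervals of shares and scaling used values rounded to whole numbers. TMM factors came from edgeR 4.0.16 and size factors from DESeq2 1.42.0 (R 4.3.3), over IDs with at least 20 summed counts. Intervals are exact at 95% (Poisson, Clopper-Pearson, conditional binomial), computed with scipy 1.17.1 in Python 3.11.15. Poisson intervals used the deposited values, so those of the non-whole counts of AIMP1 and AIMP2 are interpolated and not exact. A count of 10 is 11.5 CPM in replicate 1 and 16.4 CPM in replicate 2. The steps were tested on simulated counts that held counting error alone, so spread between libraries beyond it was not covered.

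The rule for named genes takes all 10 members, and 1 of them is not reported here, for a reason that does not depend on its values; it stays among the IDs used for scaling and background. The members, lists and limits were chosen with earlier results of these data known. Gene symbols came from the rule that defines the members. The RefSeq table lists an Ensembl ID for 0 of its 59792 genes, so 48 symbols of other lists (other synthetases, elongation factors, cell markers) were not applied, and the identity of the cells was not checked against markers.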

Additional observations from a re-analysis of the deposited data

How the results depend on the processing

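With a total that omits the 2 highest IDs, the members' share was 0.227% in place of 0.181%, and their summed level 2265 CPM in place of 1812 CPM. Over single libraries, the share ran from 0.150% to 0.213% and the summed level from 1498 to 2126 CPM. The number of members beyond 1.5-fold was 2, or 3 by library size and with TMM factors from IDs with at least 1 summed count, and with a 2-fold limit it was 0. The number with an interval below 0 was 7, 6 with TMM factors from IDs with at least 100 summed counts, and 4 with 99% intervals, all from rounded counts. For both numbers, shares over all tested IDs were not computed under these other settings. The median percentile of the members' mean CPM was 90.4 among IDs with at least 20 summed counts, 95.9 with at least 1 and 70.3 with at least 100, which follows from fewer or more sparse IDs in the comparison, and 88.4 to 91.8 in single libraries. The summed log2 ratio of replicate 2 over replicate 1 stayed between -0.51 and -0.33 under the scalings run. Footprints per codon, planned as a result, were not run because no protein lengths were used here. No paired analysis was possible because the libraries form a single group. Depth limits AIMP1 and AIMP2, with 86.5 and 82 summed counts.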
